A study of Mus musculus with 6 samples.

Results

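A group of 5776 transcribed loci was examined that the authors assembled from the oocyte reads and that carry neither an Ensembl identifier nor an ortholog annotation. They were taken from the 60193 rows of the expression table as the rows whose identifier does not begin with the mouse Ensembl prefix and whose KO field is empty. KO (KEGG Orthology) identifiers place a gene in a group of orthologs of known function. Of the 6493 assembled loci in the table, 717 carried a KO identifier and were kept apart. The empty KO field did not mean that nothing was known of a locus, because 3474 of the 5776 loci had a protein match in the authors' search of the nr database and 394 had one in Swiss-Prot. The remaining 2302 loci had no nr match, and 2265 had no entry in any annotation column. The table gives each locus a length and 6 FPKM values but pairs none of them with a gene name, and the sequences and positions of the loci were not analysed here.

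Assembled loci are stretches of the genome where RNA-seq reads pile up outside or beside annotated gene models. They can be long noncoding RNAs, unannotated exons or ends of known genes, introns left in transcripts, or copies of transposable elements. Mouse oocytes are a rich source of them, since retroelements of the LTR and LINE classes are transcribed there and donate promoters to other transcripts. A fully grown oocyte is nearly silent in transcription, so that its RNA at metaphase II (MII) is largely a stored maternal supply, part of which is degraded as meiosis resumes.

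The samples were MII oocytes of reproductively old ICR females, an outbred strain, at 42 to 45 weeks of age, all primed with PMSG. In the IVM group, oocytes stripped of cumulus cells were matured for 12 h in M16 medium, and in the IVO group, ovulated oocytes were flushed 14 h after hCG from the ampulla of the oviduct. Each group had 3 samples, and each sample pooled 20 oocytes of 3 mice, so that an effect of culture and an effect of how and where the cells were collected cannot be told apart. Full-length cDNA was amplified before sequencing, in pools of the same number of cells, and less RNA per cell cannot be told apart from a smaller share of the library. The inferred depth was 16600000 to 19200000 fragments in IVM and 18100000 to 18200000 in IVO libraries. All 10 oocyte markers were found, with a summed level of 15016 to 17444 FPKM in IVM and 14179 to 17560 FPKM in IVO, most of it from Oosp1. Without Oosp1 the sum was 3397 to 6474 FPKM in IVM and 2208 to 2424 FPKM in IVO, and 4 markers (Zp1, Zp2, Zp3 and Nlrp5) were called lower in IVO. Of 12 cumulus and granulosa cell markers, 3 (Nr5a2, Cyp19a1 and Fshr) reached 1 FPKM in any sample, and Amh was listed at 0 throughout. The summed level of the 12 was 62.1 to 64.6 FPKM in IVM and 44.0 to 53.5 FPKM in IVO, but 24.1 to 33.8 and 30.5 to 35.7 FPKM without Nr5a2, the marker of this list that was called lower (28.3 to 39.2 against 13.5 to 17.8 FPKM). Cyp19a1 and Fshr overlapped between the groups, and Has2, Ptx3 and Tnfaip6, all under 1 FPKM, were higher in every IVO sample than in any IVM sample. The sums of 5 oviduct markers (2.93 to 3.16 against 3.26 to 5.71 FPKM) and of 4 blood markers (at most 0.210 against at most 3.65 FPKM) were higher in some IVO samples, and their part in the differences below was not tested.

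Most of the loci were short. Their length ranged from 200 to 5685 bases, with a median of 469 bases and quartiles of 290 and 873 bases, and 95% were no longer than 1882 bases. The shortest lengths were the most frequent: 1064 loci (18.4%) measured 200 to under 250 bases, and 414 of these lay within 10 bases of the lower limit. By class, 3055 loci were under 500 bases, 1544 were 500 to under 1000, 955 were 1000 to under 2000, 214 were 2000 to under 4000 and 8 were 4000 bases or longer. The assembled loci with a KO identifier were shorter still, with a median of 323 bases. Ensembl genes without a KO identifier, the annotated rows most like these loci in what is known of them, had a median of 862 bases and began at 9 bases.

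**Figure D1:**
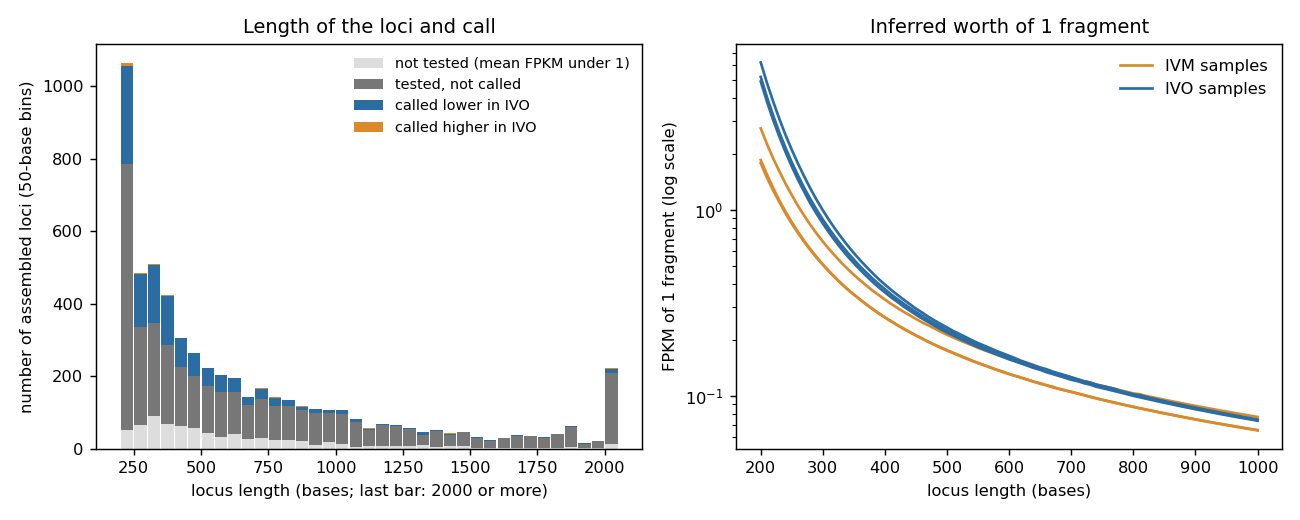
The left panel shows the number of assembled loci without a KO identifier per 50 bases of length, stacked by the IVO against IVM call (grey shades not tested or not called, blue lower in IVO, orange higher in IVO). The right panel shows, on a log scale, the FPKM that 1 fragment was inferred to be worth in each library by locus length (orange IVM, blue IVO), from 1.78 to 2.74 in IVM and 4.89 to 6.20 in IVO at 200 bases, with the lines close together at 1000 bases.

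Length also sets what an FPKM value is worth. The authors' RSEM divides the fragments of a locus by the number of positions a fragment can take on it, and this number becomes small when a locus is as short as the fragments themselves. The mean fragment was inferred to be 209.3 ± 7.82 bases long in the IVM libraries (SD, n = 3), shorter than in each of the IVO libraries, where it was 257.5 ± 8.10 bases (SD, n = 3). On a locus of 200 bases, 1 fragment was worth 1.78 to 2.74 FPKM in IVM and 4.89 to 6.20 FPKM in IVO. At 300 bases the worth was 0.506 to 0.675 FPKM in IVM and 0.844 to 0.994 FPKM in IVO. At 1000 bases it was 0.0652 to 0.077 FPKM and 0.0735 to 0.0746 FPKM, so the libraries were close in this respect. A locus of 200 bases with 3 fragments would thus be listed at 5.34 to 8.23 FPKM in IVM and at 14.7 to 18.6 FPKM in IVO. Among the loci tested below, the median number of fragments per sample rebuilt in this way rose from 16.2 under 500 bases to 25.7 at 500 to under 1000 and 66.5 at 1000 to under 2000 bases. These figures come from whole-number steps in low FPKM values, 71.9% to 76.0% of which lay within 0.1 of a whole fragment, and a second search for the best fit moved the worth at 200 bases by 0.00% to 5.01%. They cover counting error only.

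The loci made up a smaller part of the IVO libraries. They held 20.1%, 20.2% and 19.0% of the summed FPKM in IVM samples 1, 2 and 3, but 15.2%, 14.9% and 15.6% in IVO samples 1, 2 and 3. The IVM mean was 19.8% ± 0.666 (SD, n = 3) and the IVO mean 15.2% ± 0.351 (SD, n = 3), with no overlap. Ensembl genes without a KO identifier held a slightly larger part in IVO (24.1% to 24.4%) than in IVM (22.5% to 22.6%). Counted as rebuilt fragments, the loci took 4.09% to 4.72% of the IVM and 2.45% to 2.65% of the IVO libraries, since short loci weigh more in FPKM than in fragments. Loci under 500 bases supplied 92.7% to 93.7% of the loci's FPKM in IVM and 90.8% to 91.7% in IVO. With 3 samples a side the smallest p-value of an exact permutation test is 0.1, so these values per sample are given without one.

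The distribution of FPKM was shifted down in IVO over its whole range. The median locus stood at 4.39, 4.51 and 4.12 FPKM in the IVM samples and at 2.70, 2.46 and 2.59 FPKM in the IVO samples. The upper quartile was 18.8 to 21.7 FPKM in IVM and 9.71 to 11.0 FPKM in IVO, and the 95th percentile was 256 to 313 FPKM against 153 to 176 FPKM. None of these ranges overlapped between the groups. The 10 loci with the highest mean FPKM over the 6 samples carried 10.7% to 11.9% of the loci's FPKM in IVM and 15.4% to 15.7% in IVO.

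Among the tested loci under 500 bases, the median was 16.3, 15.5 and 13.4 FPKM in IVM and 5.55, 5.28 and 5.96 FPKM in IVO. Tested Ensembl genes without a KO identifier in this class had medians of 5.80, 6.80 and 5.94 FPKM in IVM and 2.97, 2.70 and 2.98 FPKM in IVO. The short loci were thus the more abundant rows in both groups, with medians further apart between IVM and IVO. From 500 bases on the order was the opposite, and the loci at 1000 to under 2000 bases had medians of 3.07 to 3.52 FPKM in IVM and 2.65 to 3.28 FPKM in IVO, against 8.68 to 10.1 and 7.26 to 8.36 FPKM for the Ensembl genes. In this class the sample medians of the loci overlapped between the groups, and so did those at 2000 to under 4000 bases (3.93 to 4.09 FPKM in IVM and 3.62 to 4.53 FPKM in IVO).

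**Figure D2:**
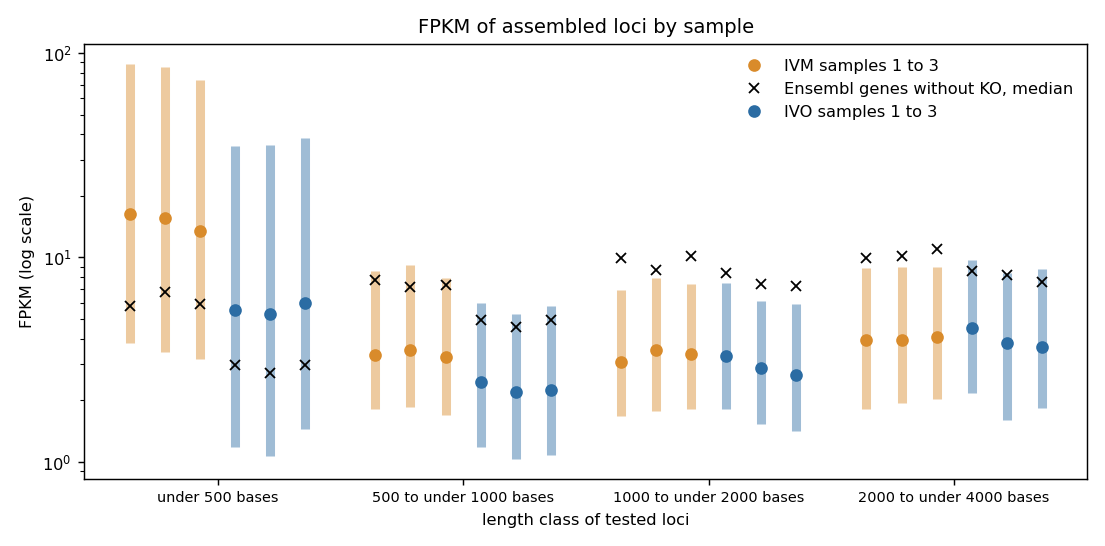
FPKM (log scale) of the tested assembled loci without a KO identifier in each of the 6 samples, by length class; points are medians, bars reach from the lower to the upper quartile, and crosses are the medians of Ensembl genes without a KO identifier. The IVM and IVO medians are well apart under 500 bases (13.4 to 16.3 against 5.28 to 5.96 FPKM) and overlap from 1000 bases on.

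Detection followed the same order. At 1 FPKM or more, IVM samples 1, 2 and 3 had 4791, 4829 and 4755 loci, where IVO samples 1, 2 and 3 had 4209, 4004 and 4128. Between 306 and 348 loci were listed at 0 in an IVM sample and between 696 and 829 in an IVO sample. The loci at 1 FPKM or more in all 6 samples numbered 2997 (51.9%), and 84 reached it in none. In the 3 IVM samples but in no IVO sample, 254 loci reached 1 FPKM. In the 3 IVO samples but in no IVM sample, 26 did. Among the 25693 Ensembl genes without a KO identifier these counts were 141 and 8, and they were not made over all rows. Of these genes 21318 had a mean under 1 FPKM, as had 790 of the 5776 loci, so the counts come from unlike sets. On a locus of 200 bases 1 FPKM was less than 1 fragment in every library. Of the assembled loci, 104 were above 0 in every IVM sample and listed at 0 in every IVO sample, and 1 showed the reverse. No such count was made over other rows, and 94 of the 104 were under 500 bases. At these lengths a value of 0 stands for few possible fragments, and absence cannot be read from it.

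For the comparison of IVO with IVM, 4986 of the 5776 loci had a mean of at least 1 FPKM over the 6 samples and were tested, and 790 were not. The test was limma on log2(FPKM + 1), fitted over all 18818 rows of the table that passed this filter. A locus was called at a Benjamini-Hochberg adjusted p-value under 0.05 and a log2 fold change (log2FC, IVO minus IVM) of at least 1 in size. Called lower in IVO were 1170 loci (23.5% of those tested), where 17.9% of all tested rows were called lower. Called higher were 27 loci (0.542%), beside 0.606% of all tested rows. Ensembl genes without a KO identifier were called lower in 15.8% of 4375 tested rows, and assembled loci with one in 39.8% of 678. The median log2FC of the loci was -0.60 (quartiles -1.29 and 0.01), with 74.7% of the values below 0, and the median was -0.30 over all rows, -0.22 over the Ensembl genes without a KO identifier and -1.10 over the assembled loci with one. In 1947 loci (39.0%) the 3 IVO values all lay below the 3 IVM values, against 32.6% of all tested rows, and in 247 (4.95%) they all lay above, against 9.62%. Of the calls, 1168 of the 1170 lower and all 27 higher loci were also apart in this sense. Since the loci were assembled from the oocyte reads, a locus may have entered the table through the group where it was high. Ensembl genes were not selected in this way, and the part of this selection in the differences from them was not tested.

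These counts depended on single libraries and on the scale. Without IVM sample 1 the calls were 773 lower and 9 higher, and without IVO sample 1 there were 17 higher. Of the calls with all samples, 623 lower and 3 higher ones were also made in each of the 6 fits that left out 1 sample. Median-ratio scaling raised the median log2FC of all tested rows by 0.25, from -0.30 to -0.04, and that of the loci from -0.60 to -0.35, with 766 lower and 77 higher calls. The lower calls made up 97.7% of all calls on the loci on the deposited scale, but 71.9% with quantile normalization.

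The difference between IVM and IVO was concentrated in the short loci. Under 500 bases, 857 of 2659 tested loci (32.2%) were called lower and 17 higher, with a median log2FC of -1.03. At 500 to under 1000 bases, 252 of 1272 (19.8%) were called lower and 7 higher, with a median of -0.30, which was 0.17 with quantile normalization. At 1000 to under 2000 bases, 48 of 847 (5.67%) were called lower and 2 higher, with a median of -0.07 that turned to 0.16 with median-ratio scaling. At 2000 to under 4000 bases, 12 of 201 (5.97%) were called lower and 1 higher, with a median of 0.04 that was -0.17 with each library's trend with length removed and -0.03 without IVO sample 1. Of the 7 tested loci of 4000 bases or more, 1 was called lower. Over all tested rows, which include these loci, the shares called lower were 31.2% under 500 bases, 22.5% at 500 to under 1000, 12.6% at 1000 to under 2000 and 12.3% at 2000 to under 4000 bases, with medians of -0.99, -0.35, -0.16 and -0.13. The share of the loci was thus close to that of all rows under 500 bases, where 2659 of the 4064 tested rows were these loci, and below it in the 3 longer classes.

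Ensembl genes also differed by length, but over a narrower range. The shares called lower of those without a KO identifier were 17.2%, 22.0%, 13.8% and 13.7% from under 500 to 2000 to under 4000 bases, with medians of -0.44, -0.34, -0.18 and -0.15. Under 500 bases, Ensembl genes with a KO identifier were called lower in 92 of 384 rows (median -0.56) and assembled loci with one in 236 of 543 (43.5%, median -1.20). The loci therefore stood below the Ensembl genes without a KO identifier in median log2FC under 500 bases and above them from 500 bases on, and no test was made of these differences between sets of rows. Removing each library's trend with length, fitted over all tested rows, brought the median of the loci under 500 bases to -0.44 and that of the Ensembl genes of this length to 0.10. The gap between the medians of the loci under 500 and at 1000 to under 2000 bases was -0.96 as deposited and -0.20 with this trend removed. Removing the trend lowers this gap by construction. The mean fragment length and the worth of 1 fragment moved with the groups in the same libraries, and their part in the length pattern was not tested. Expressed as rebuilt fragments scaled to the depth of the library, without division by length, the loci under 500 bases had a median log2FC of -1.64 and those at 1000 to under 2000 bases -0.16. Since 1 fragment was worth more FPKM on short loci in IVO, rebuilding lowers the log2FC of short loci by construction.

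**Figure D3:**
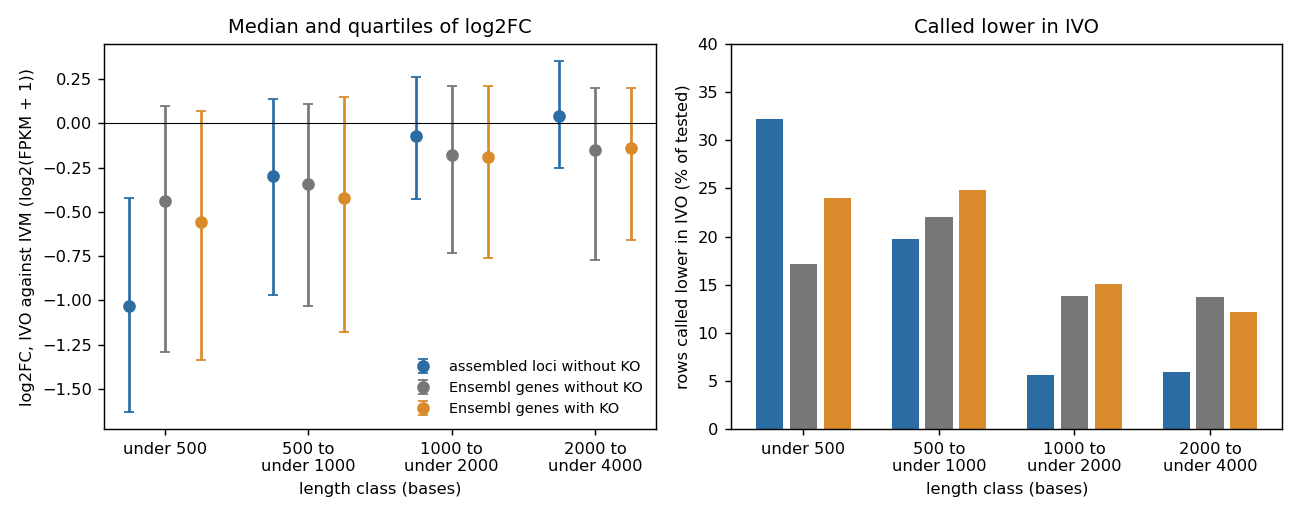
Left, median (point) and quartiles (bars) of the log2FC between IVO and IVM, on the log2(FPKM + 1) scale, by length class for assembled loci without a KO identifier (blue), Ensembl genes without one (grey) and Ensembl genes with one (orange); right, the percent of tested rows called lower in IVO. The loci go from a median of -1.03 under 500 bases to 0.04 at 2000 to under 4000 bases, and their share called lower from 32.2% to 5.97%.

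Within the short class the shift did not grow toward the shortest loci. The median log2FC was -1.05 at 200 to under 250 bases, -1.14 at 250 to under 300, -1.06 at 300 to under 400 and -0.86 at 400 to under 500 bases. The shares called lower were 26.9%, 35.0%, 38.1% and 31.5%, beside 31.2% of all tested rows under 500 bases. Abundance was not matched over these ranges, and the median of the mean FPKM fell from 45.4 to 4.92, 3.35 and 2.35. The few tested Ensembl genes without a KO identifier in these ranges had medians of -0.60 (23 genes), -0.25 (37 genes), -0.39 (101 genes) and -0.39 (150 genes). Of these genes, 8.70%, 13.5%, 22.8% and 25.3% were called lower. Samples of a group differed more on short loci. The median SD of log2(FPKM + 1) within a group was 0.57 under 500 bases, 0.37 at 500 to under 1000, 0.33 at 1000 to under 2000 and 0.27 at 2000 to under 4000 bases, and 0.32 over the Ensembl genes without a KO identifier. Of the 1170 loci called lower, 204 had a mean of fewer than 10 rebuilt fragments per sample, as had 14 of the 27 called higher.

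Abundance and length were bound together in these loci. The median length fell from 612 bases among loci with a mean of 1 to under 3 FPKM to 608 bases at 3 to under 10, 369 at 10 to under 30, 277 at 30 to under 100 and 216 at 100 FPKM or more. The numbers in these classes were 1847, 1352, 716, 533 and 538. The share called lower rose from 11.8% at 1 to under 3 FPKM and 23.2% at 3 to under 10 to 35.6% at 10 to under 30 and 39.0% at 30 to under 100, and was 32.7% at 100 FPKM or more. Over all tested rows the share was 10.6%, 17.2%, 21.4%, 22.4% and 23.2% in the same classes, so it also rose with abundance there and was close to that of the loci in the lowest class. The median log2FC of the loci over the 5 classes was -0.27, -0.48, -1.09, -1.09 and -0.89, and that of all rows -0.25, -0.26, -0.31, -0.31 and -0.49. The pseudocount of 1 draws the log2FC of the lowest class toward 0. With each library's trend with length removed, the gap between the medians of the highest and the lowest class was 0.00, where it was -0.62 as deposited.

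Under 500 bases the median log2FC was -0.71 at 1 to under 3 FPKM, -1.48 at 10 to under 30 FPKM and -0.92 at 100 FPKM or more, so it was lowest in the middle of the range. The share called lower at these 3 levels was 15.8%, 45.0% and 34.3%, beside 31.2% of all tested rows under 500 bases at any level. At 500 to under 1000 bases the median went from -0.22 at 1 to under 3 FPKM to -0.63 at 30 to under 100 FPKM, and was -0.01 for the 22 loci at 100 FPKM or more. At 1000 to under 2000 bases the median stayed between -0.15 and 0.00 in the 4 classes up to 100 FPKM, each with 34 or more loci. Within each of the 5 classes of mean FPKM, the loci under 500 bases thus had a lower median than those of 500 to under 1000 bases. At 10 to under 30 FPKM the medians were -1.48 under 500 bases, -0.58 at 500 to under 1000 and 0.00 at 1000 to under 2000 bases. Equal FPKM stand for fewer fragments on shorter loci, so the number of fragments was not matched.

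**Figure D4:**
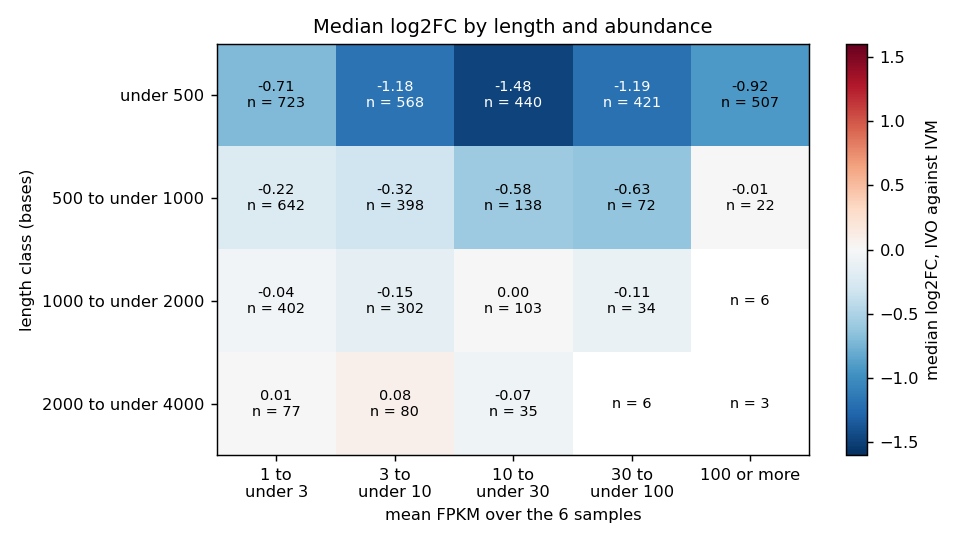
Median log2FC between IVO and IVM of the tested assembled loci without a KO identifier by length class (rows) and mean FPKM over the 6 samples (columns), with the number of loci in each cell; blue is lower in IVO, and cells of fewer than 20 loci are left white. The lowest median is -1.48, for 440 loci under 500 bases at 10 to under 30 FPKM, and the cells from 1000 bases on lie between -0.15 and 0.08.

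The protein matches divided the loci further. Many loci shared a single match, and the 10 most frequent nr matches covered 2259 loci and 89.1% to 91.8% of the loci's FPKM in every sample. The most frequent was an entry named Chpt1 protein, with 800 loci and a median length of 254 bases. Chpt1 encodes cholinephosphotransferase, the enzyme of the last step in the synthesis of phosphatidylcholine. These loci alone held 50.9% to 51.5% of the loci's FPKM in IVM and 46.6% to 48.9% in IVO. Their median was 62.1, 65.0 and 49.8 FPKM in IVM and 20.9, 20.2 and 24.6 FPKM in IVO, without overlap. Of 785 tested, 368 (46.9%) were called lower and none higher in the limma fit, where 1 had an unadjusted p-value under 0.05 and a positive log2FC. The median log2FC was -1.26.

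The annotated Chpt1 gene, of 4863 bases, was listed at 12.5, 10.5 and 16.3 FPKM in IVM and 7.08, 7.61 and 9.15 FPKM in IVO (log2FC -0.64 ± 0.23 SE, adjusted p = 0.0865 by limma). These values lay below the medians of these loci. Since 1 fragment is worth more FPKM on short loci, this does not give the order in fragments, which was not compared. Whether these loci are parts of that gene was not tested. Loci with the same match may share sequence, in which case RSEM divides their reads by estimate and the value of any single locus is uncertain, and this was not tested.

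Several other frequent matches had shifts of the same size. The rat entry rCG56442 (321 loci) had a median log2FC of -1.24, with 136 of 315 tested loci called lower. The mouse entries mCG147230 (210 loci) and mCG1045525 (156 loci) had medians of -1.07 and -1.11. These 3 are names of proteins predicted from genome sequence, and no function is attached to them in the table.

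In contrast, 187 loci matched an unnamed mouse protein product and were long, with a median of 1700 bases. Of their 166 tested loci, 4 were called lower, and the median log2FC was -0.28. The entry mCG147332 (172 loci, median length 774 bases) had a median of -0.26, with 24 of 158 called lower. By Swiss-Prot, 185 loci of median length 1732 bases matched TLC domain-containing protein 2, with a median of -0.27 and 2 of 164 called lower. The annotated Tlcd2 gene was at most 0.310 FPKM in IVM and was listed at 0 in the 3 IVO samples.

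The 2302 loci without an nr match had lower FPKM and shifted little. They stood at medians of 2.86, 2.64 and 2.48 FPKM in IVM and 2.15, 1.96 and 2.05 FPKM in IVO. Of 1762 tested, 189 (10.7%) were called lower and 19 higher, so that 19 of the 27 higher calls fell here. Their median log2FC was -0.17, but was positive with median-ratio scaling (0.05) and quantile normalization (0.31). The loci with any nr match had a median of -0.88 and 981 of 3224 (30.4%) called lower.

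With the loci split at 500 bases, those on the same side also differed by match. Among loci of 500 bases or more, the 70 tested loci matching Chpt1 protein had a median log2FC of -1.27 and 39 were called lower, while the 1182 loci without a match had a median of -0.08 and 118 were called lower. Under 500 bases the medians were -1.26 (715 loci) and -0.46 (580 loci). The 25 longer loci matching rCG56442 (-1.28) and the 21 matching mCG147230 (-1.20) lay with the former. Neither abundance nor length within each side was matched. The median of the mean FPKM was 38.3 over all loci matching Chpt1 protein and 1.70 over those without a match. These are counts and medians, and no test was made between groups of loci.

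**Figure D5:**
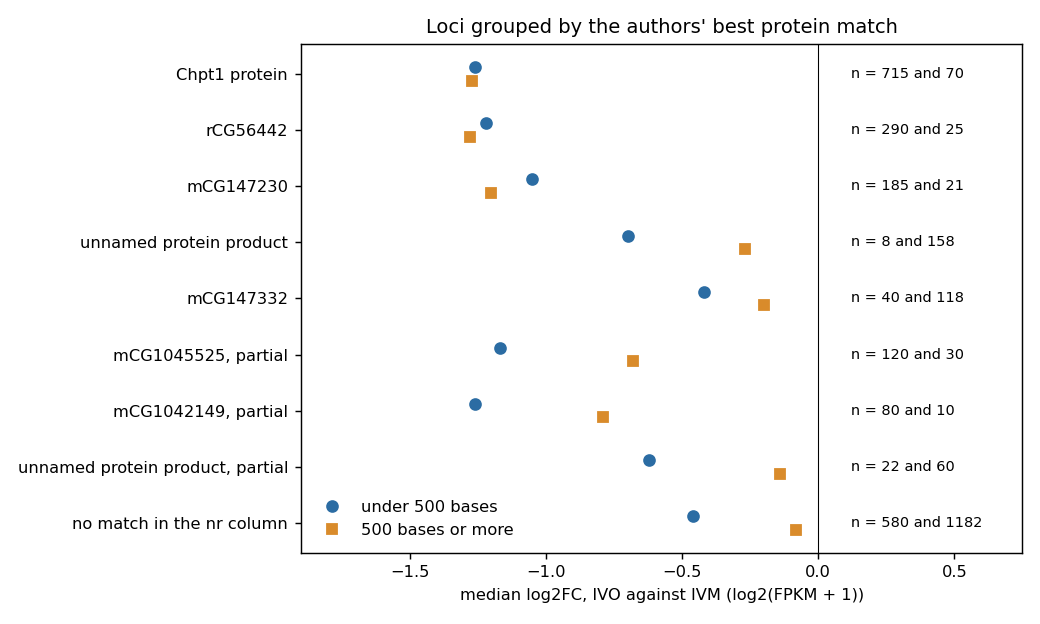
Median log2FC between IVO and IVM, on the log2(FPKM + 1) scale, of the tested assembled loci without a KO identifier, grouped by the authors' best nr match (8 frequent matches and no match), for loci under 500 bases (blue circles) and of 500 bases or more (orange squares), with the number of loci of each. Chpt1 protein lies at -1.26 and -1.27 in both lengths, and loci without a match at -0.46 and -0.08.

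Groups of loci with matches to transposable elements and to a few protein families were looked at after their values had been seen. The 63 loci with a Swiss-Prot match to proteins of LINE-1, a retrotransposon that moves through reverse transcription of its own RNA, had a median log2FC of -0.18, with 9 of 54 called lower. Of these, the 15 tested loci under 500 bases had a median of -1.57 and the 39 longer ones of -0.06. The 70 loci matching retroviral Gag, Pol or Env proteins, which endogenous retroviruses encode, had a median of -0.13, with 8 of 62 called lower. The 24 loci with a C2H2 zinc finger or KRAB domain, found in many repressors of retroelements, had a median of 0.33 over 19 tested loci, with none called lower in the limma fit, none at an unadjusted p-value under 0.05 in that direction, and 2 called higher. All 22 loci matching NEDD4, a ubiquitin ligase, were lower in IVO on average (median log2FC -1.30), and 9 were called. Of these 22, 19 were under 500 bases, with a median of -1.36 and 7 called. In that length class 84.3% of all tested rows had a negative log2FC and 31.2% were called lower, with a median of -0.99. Of the 7 loci matching the PRAME family of leucine-rich repeat proteins, 5 were tested and 3 called lower.

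On the deposited FPKM the 5 most abundant loci stayed under the fold threshold and were not called. The first by mean FPKM, a locus of 201 bases matching Chpt1 protein, stood at 8017, 7619 and 5805 FPKM in IVM and 3936, 4185 and 5007 FPKM in IVO. Its groups did not overlap, but with a log2FC of -0.70 ± 0.17 (SE) and an adjusted p-value of 0.0250 by limma it stayed under the fold threshold, and with each library's trend with length removed its log2FC was 0.06. In rebuilt fragments it held about 2982, 4362 and 3192 in IVM and 652, 829 and 1051 in IVO, and with these scaled to depth its log2FC was -2.05 and called. On a locus this short, equal FPKM become fewer rebuilt fragments in IVO than in IVM by construction.

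The second, of 230 bases and matching mCG147230, stood at 6419, 5589 and 4748 FPKM in IVM and 5686, 4884 and 5590 FPKM in IVO. Its groups overlapped (log2FC -0.04 ± 0.15 SE, adjusted p = 0.862 by limma). In rebuilt fragments scaled to depth its log2FC was -1.14 and called. At 230 bases 1 fragment was worth 1.10 to 1.61 FPKM in IVM and 2.47 to 3.08 FPKM in IVO, so rebuilding alone lowers this log2FC. The fourth, of 229 bases and matching rCG56442, stood at 4459, 3502 and 2662 FPKM in IVM and 4512, 4335 and 5370 FPKM in IVO. It was thus listed higher in IVO on average (log2FC 0.45 ± 0.21 SE, adjusted p = 0.164 by limma, not called), while its rebuilt fragments were 2732, 3152 and 2333 in IVM and 1436, 1632 and 2132 in IVO, which scaled to depth gave a log2FC of -0.66, and with each library's trend with length removed it was called higher at 1.15. The third and the fifth, both matching Chpt1 protein, had log2FC values of -0.60 and -0.35 and were not called. In rebuilt fragments they were called at -1.88 and -1.07, and the same lowering holds at their lengths.

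The largest falls were in very short loci. MSTRG.20297, of 206 bases and matching Chpt1 protein, stood at 67.3, 30.3 and 27.7 FPKM in IVM and was listed at 0 in the 3 IVO samples. It was called lower (adjusted p = 6.53e-04 by limma), on rebuilt counts of 28, 19 and 17 fragments in the IVM samples. MSTRG.28578, of 206 bases, stood at 621, 883 and 632 FPKM in IVM and 8.15, 37.8 and 18.3 FPKM in IVO. Its groups were far apart, with a log2FC of -5.21 ± 0.49 (SE) and an adjusted p-value of 0.00133 by limma, and it rested on 254, 552 and 381 fragments in IVM and 2, 8 and 4 in IVO. Both were called in each of the 6 fits that left out 1 sample.

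The largest rises were in short loci without a match and on few fragments. MSTRG.36877, of 249 bases, was listed at 0 in IVM samples 1 and 2 and at 1.20 FPKM in IVM sample 3, and stood at 9.37, 9.53 and 4.76 FPKM in IVO. With a log2FC of 2.72 ± 0.41 (SE) and an adjusted p-value of 0.00520 by limma it was called higher, on 1 rebuilt fragment in IVM sample 3 and 4, 5 and 3 in the IVO libraries. MSTRG.10552, of 248 bases, stood at 5.20, 1.71 and 2.51 FPKM in IVM and 19.3, 30.6 and 14.2 FPKM in IVO. Its log2FC was 2.45 ± 0.39 (SE) with an adjusted p-value of 0.00627 by limma, on 4, 2 and 3 fragments in IVM and 9, 16 and 8 in IVO. Both pairs of groups were apart, and both loci were also called in each fit without 1 sample.

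By class, longer loci had more fragments behind their values, with a median of 160 per sample at 2000 to under 4000 bases, though single short loci had more. The most abundant locus of 2000 to under 4000 bases, of 2826 bases and without a match, stood at 242, 239 and 285 FPKM in IVM and 338, 364 and 412 FPKM in IVO. All 3 IVO values lay above the IVM values, with a log2FC of 0.54 ± 0.16 (SE) and an adjusted p-value of 0.0530 by limma, so it was not called, on 10470 to 19216 fragments per sample. The longest tested locus, of 5685 bases, stood at 12.2, 9.15 and 8.13 FPKM in IVM and 3.71, 1.75 and 3.22 FPKM in IVO. It was the locus of 4000 bases or more that was called lower, with a log2FC of -1.49 ± 0.28 (SE) and an adjusted p-value of 0.0108 by limma. It rested on 1103, 963 and 858 rebuilt fragments in IVM and 367, 172 and 317 in IVO. The most abundant loci at 500 to under 1000 and at 1000 to under 2000 bases had overlapping groups, at 493 to 740 against 604 to 781 FPKM and 228 to 351 against 276 to 312 FPKM. The shortest tested locus, of 200 bases, stood at 3311, 3279 and 3380 FPKM in IVM and 2965, 2120 and 3039 FPKM in IVO, and was not called (log2FC -0.31 ± 0.17 SE, adjusted p = 0.223 by limma).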

How the data were processed

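The authors filtered paired-end reads with SeqPrep and Sickle and aligned them to GRCm39 with HISAT2 (2.1.0 in the submitters' processing notes). They deposited FPKM values per gene and sample, estimated with RSEM (1.3.3 in those notes), with a length and annotation columns. The tool that assembled the loci is not given in the sources used here. The deposited group means were not used, and the authors' DESeq2 test used counts that were not analysed here, so FPKM were tested on a log scale.

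Rows with a mean of at least 1 FPKM over the 6 samples were fitted in R 4.3.3 with limma 3.58.1 (lmFit, eBayes with trend) on log2(FPKM + 1), with the group alone as a term. P-values are two-sided, with Benjamini-Hochberg adjustment over the 18818 rows. Tested on simulated data with 200 of 18818 rows changed, this fit of IVO against IVM called 148 of them, 64% at a log2FC of 2 and 84% at 3, and 6 unchanged rows. The 3 samples of a group are separate pools of oocytes.

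Depth and mean fragment length were inferred per library from whole-number steps in FPKM values worth 0.4 to 4.6 fragments on rows of 200 to 1500 bases, with a fragment length distribution fitted alongside. Rebuilt fragments are FPKM divided by the worth of 1 fragment. Tested on 2 simulated libraries, the worth of 1 fragment at 200 bases was off by 0.5% and 0.6%. The simulation used the same form of fragment length distribution as the fit, so error from another form was not tested. Of its low values, 84.2% and 83.6% lay within 0.1 of a whole fragment, against 71.9% to 76.0% in the data. Since amplified fragments are not independent molecules, these numbers cover counting error only.

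The members, classes and lists were chosen with earlier results of these data known. Loci named by identifier are the called ones without overlap of the groups that fell most (2 loci) and rose most (2 loci) in log2FC. Loci given without identifier are the 5 highest in mean FPKM, the highest of each length class and of the 3 most frequent matches, and the shortest and the longest tested. The 10 most frequent matches were counted, and 2 of them are not reported here one by one. Alternatives were 3 other scalings, a filter at a mean of 5 FPKM or none, a pseudocount of 0.1, eBayes without trend, a replicate block, subtraction of a lowess trend with length from each library (span 0.3), other class bounds and leaving out each sample. Rebuilt fragments scaled to depth, log2(value + 0.1), and a mean of at least 10 rebuilt fragments were added after seeing the data. Tables and plots were made with Python 3.11.15, pandas 2.3.3, numpy 2.4.6, scipy 1.17.1 and matplotlib 3.10.9.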

Additional observations from a re-analysis of the deposited data

How the results depend on the processing

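The loci called lower and higher in IVO numbered 1170 and 27 as reported. They numbered 766 and 77 with median-ratio scaling, 768 and 83 with the same sum of FPKM, 565 and 221 with quantile normalization, 714 and 66 with the length trend removed, 585 and 63 with the replicate block added to the latter, and 2002 and 27 with rebuilt fragments scaled to depth. The higher calls were 15 without a filter, 15 at a mean FPKM of at least 5 and 17 at a mean of at least 10 rebuilt fragments. Leaving out 1 sample gave 773 to 1117 lower calls, with 773 without IVM replicate 1, and 9 to 23 higher calls, with 9 without IVM replicate 1 and 17 without IVO replicate 1. Every fit here left the median log2FC of the loci below 0. It was -0.60 as reported, -0.76 with a pseudocount of 0.1, -0.54 without a filter, -0.93 at a mean FPKM of at least 5, -0.35 with median-ratio scaling, -0.34 with the same sum, -0.13 with quantile normalization, -0.33 with the length trend removed, with or without the block, -1.03 with rebuilt fragments and -0.51 at 10 rebuilt fragments or more. The gap between loci under 500 and at 1000 to under 2000 bases (-0.96) was -1.18 with a pseudocount of 0.1, -0.20 with the length trend removed and -1.47 with rebuilt fragments. The gap between loci at 100 FPKM or more and at 1 to under 3 FPKM (-0.62) was -0.45 with a pseudocount of 0.1, -0.48 with the same sum, 0.00 with the length trend removed, -1.44 with rebuilt fragments and -0.78 at 10 rebuilt fragments or more; a mean FPKM of at least 5 leaves no locus in the lower class. The mean number of loci detected was 4792 in IVM and 4114 in IVO at 1 FPKM, and 2721 and 2089 at 5 FPKM. Removing the length trend lowers the length gap by construction, and rebuilding fragments lowers the log2FC of short loci by construction. The cause of the other moves was not tested.

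Several smaller values changed sign. The median at 500 to under 1000 bases was 0.17 with quantile normalization, and the median at 1000 to under 2000 bases was 0.16, 0.17 and 0.41 with median-ratio scaling, the same sum and quantile normalization. For loci without a match these 3 scalings gave 0.05, 0.06 and 0.31. The median at 2000 to under 4000 bases was -0.17 and that at 4000 bases or more -0.11 with the length trend removed, and at 2000 to under 4000 bases it was -0.03 to 0.13 without 1 sample (-0.03 without IVO replicate 1), and that at 1 to under 3 FPKM was 0.19 with quantile normalization. With the length trend removed, the loci ranked 1, 2, 3 and 5 by mean FPKM had log2FC values of 0.06, 0.66, 0.14 and 0.24, the shortest tested locus 0.45, and the most abundant at 1000 to under 2000 bases and at 4000 bases or more -0.09 and -0.01. That ranked 2 was 0.28, 0.29 and 0.15 with the 3 scalings and -0.16 to 0.06 without 1 sample (0.02 without IVO replicate 2), and the shortest was 0.01 and 0.02 with median-ratio scaling and the same sum. With rebuilt fragments, that ranked 4 was -0.66, and the most abundant at 500 to under 1000 and at 1000 to under 2000 bases were -0.16 and -0.05. Without 1 sample these last ranged from -0.09 to 0.21 (-0.03 without IVO replicate 1) and from -0.14 to 0.17 (0.00 without IVO replicate 1). None of the loci in this paragraph had been called. In rebuilt fragments scaled to depth, the shortest tested locus was called at -1.67, and with quantile normalization the most abundant at 2000 to under 4000 bases was called at 1.03.

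Same-numbered samples did not deviate together (r of -0.062, -0.018 and -0.107). With 3 samples a group, these values cannot tell whether such samples shared a day or a batch. With the replicate block there were 1019 lower and 22 higher calls. Depth limits the loci of about 200 bases most, and 348 tested loci had a mean of fewer than 3 rebuilt fragments. Reads shared by loci of like sequence, overlap with annotated genes and the strand of the reads were not tested. The mean fragment length differs between the groups in every library, so its part in short loci cannot be told apart from the maturation condition.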
